A study of Mus musculus with 32 samples.

Results

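Chromatin regions whose accessibility was restricted to resident conventional type 1 dendritic cells (cDC1) were taken from peak lists of mouse skin-draining lymph node dendritic cells (DC). A region is an autosomal stretch of 100 bp or more under peaks from 3 or more of the 32 libraries. It counted as called in a library if the overlap with one of that library's peaks reached 50% of either the region or the peak. The members were the regions called in at least 5 of the 6 cDC1 libraries and in at most 2 of the other 22 libraries of the floxed cohort. Of 88757 regions, 5142 met this rule, which is 5.79%. The calls chose the members, so the contrast between cDC1 and the other subsets is a description and carries no test.

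The libraries came from Omni-ATAC-seq, which uses the Tn5 transposase to tag open chromatin with sequencing adapters. Resident cells were sorted as cDC1, labelled by CD8a, or as cDC2, labelled by CD11b. Cells that had arrived from the skin were sorted as migDC1, labelled by CD103, as migDC2, labelled by CD11b, or as DN migDC. In the floxed cohort every mouse carried Ifngr1 fl/fl alleles of the interferon-γ receptor. Cre-positive mice also carried CD11c-Cre and Cre-negative mice did not, so the controls share the floxed alleles. There were 3 Cre-negative and 3 Cre-positive libraries of cDC1, cDC2, migDC2 and DN migDC, and 2 of each of migDC1. A further 4 libraries held migDC2 only, 2 from wild-type and 2 from germline Ifngr1-/- mice. CD11c-Cre acts in cells that express CD11c and is not confined to one DC subset. The labels give no age, do not say whether animals were pooled, and do not say that libraries of a group are separate animals.

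The cDC1 lineage takes up dead cells and presents their antigens to CD8 T cells on MHC class I, a process called cross-presentation. It depends on the transcription factors IRF8 and BATF3, and its cells carry the chemokine receptor XCR1 and the dead-cell receptor CLEC9A. In the lymph node the resident cDC1 arise from blood-borne precursors, whereas their migratory counterparts come from the tissue and have matured on the way.

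Of the promoters of known cDC1 genes, that of Clec9a was the one that lay in a member. Sequences below are RefSeq promoter windows of GRCm38.p6, which shares its coordinates with mm10, from 250 bases before to 50 bases after the annotated start, 5′ to 3′ on the gene's strand. The first trio are the protein-coding promoters that lay wholly inside a member called in 6 of 6 cDC1 libraries and in 0 of 22 others, a requirement set after the calls were seen. The last pair, from Xcr1 and Cd8a, belongs to genes that define cDC1 but whose promoter regions missed the rule. Capitals mark matches on either strand to GAAATGA (a short BATF-IRF composite), GAAANNGAA (an IRF repeat), GGAANNGAA (an ETS-IRF composite), GAGGAAGT (a long PU.1 site), AGGAAG (an ETS core), TGTGGTT (RUNX) or TGANTCA (AP-1). AGGAAG can overlap GAGGAAGT, and the IRF and ETS-IRF patterns can overlap each other.
Clec9a: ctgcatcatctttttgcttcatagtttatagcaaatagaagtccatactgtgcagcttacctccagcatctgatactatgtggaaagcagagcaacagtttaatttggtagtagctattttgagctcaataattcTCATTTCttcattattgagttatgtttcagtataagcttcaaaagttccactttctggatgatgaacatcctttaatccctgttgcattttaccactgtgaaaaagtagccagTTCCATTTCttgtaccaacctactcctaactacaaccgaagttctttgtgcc
Clec4b2: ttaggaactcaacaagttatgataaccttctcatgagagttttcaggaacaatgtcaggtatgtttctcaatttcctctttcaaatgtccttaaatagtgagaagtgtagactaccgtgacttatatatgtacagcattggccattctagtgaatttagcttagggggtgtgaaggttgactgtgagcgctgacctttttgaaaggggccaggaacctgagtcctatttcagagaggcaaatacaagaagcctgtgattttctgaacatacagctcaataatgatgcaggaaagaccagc
Stfa2l1: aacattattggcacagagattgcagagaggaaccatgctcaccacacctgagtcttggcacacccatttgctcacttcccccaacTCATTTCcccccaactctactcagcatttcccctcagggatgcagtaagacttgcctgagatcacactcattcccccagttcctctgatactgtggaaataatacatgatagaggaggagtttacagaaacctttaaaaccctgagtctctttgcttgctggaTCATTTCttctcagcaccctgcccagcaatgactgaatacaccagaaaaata
Xcr1: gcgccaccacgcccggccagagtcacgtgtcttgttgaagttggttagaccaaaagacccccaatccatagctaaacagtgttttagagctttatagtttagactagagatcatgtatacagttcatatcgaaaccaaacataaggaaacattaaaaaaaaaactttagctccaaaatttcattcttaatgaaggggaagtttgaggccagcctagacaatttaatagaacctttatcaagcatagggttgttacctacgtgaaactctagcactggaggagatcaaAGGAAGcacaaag
Cd8a: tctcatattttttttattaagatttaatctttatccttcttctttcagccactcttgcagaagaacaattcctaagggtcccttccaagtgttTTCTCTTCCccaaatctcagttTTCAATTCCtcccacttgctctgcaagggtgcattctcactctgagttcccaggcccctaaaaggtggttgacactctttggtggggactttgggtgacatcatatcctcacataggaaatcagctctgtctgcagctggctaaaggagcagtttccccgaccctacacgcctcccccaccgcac

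The Clec9a window lies at chr6:129408612-129408911 on the plus strand. It held 1 IRF repeat, TTCCATTTC, from 2 bases before the start into the transcribed part, and 1 short BATF-IRF composite further upstream. The window of Clec4b2, a C-type lectin gene, lies at chr6:123172773-123173072 on the plus strand and held none of these patterns. The window of Stfa2l1, a stefin-family gene, lies at chr16:36156561-36156860 on the plus strand and held the short composite 2 times. The Xcr1 window, at chr9:123861980-123862279 on the minus strand, held 1 ETS core. The Cd8a window, at chr6:71373177-71373476 on the plus strand, held the ETS-IRF composite 2 times. A match is only a match of letters, and a window without one says nothing about a factor.

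The Clec9a promoter region, chr6:129408611-129409237, was called in 6 of 6 cDC1 libraries and in none of the 6 cDC2, 4 migDC1, 6 migDC2 and 6 DN migDC libraries. Its peak signal stood at the percentiles 71.7, 45.6 and 70.6 of the 3 Cre-negative cDC1 lists and at 67.6, 57.6 and 67.4 of the 3 Cre-positive ones. The peak signal is the authors' own value per peak, and a percentile here is a peak's rank within its own list with 100 as the strongest. The Xcr1 promoter region, chr9:123861728-123862357, was called in 6 of 6 cDC1 and also in 4 of 4 migDC1 libraries, and in no library of the other subsets. The Cd8a promoter region, chr6:71373047-71373666, was called in 6 of 6 cDC1 and in 6 of 6 DN migDC libraries and in no cDC2, migDC1 or migDC2 library. The marker promoters of cDC1 therefore split: that of Clec9a was a member, that of Xcr1 was shared with migDC1, and that of Cd8a was shared with DN migDC. The promoter of Tlr3, a receptor for double-stranded RNA, was called in all 28 floxed libraries.

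Within the limits of the rule, members differed in how many libraries held them. In 6 of 6 cDC1 libraries 2773 members were called, and 2369 were called in 5. In the Cre-negative cDC1 libraries 5123, 3878 and 5123 members were called, and in the Cre-positive ones 5142, 4316 and 4901. Of the 2369 members missed once, 1264 were missed in Cre-negative library 2 and 826 in Cre-positive library 2. Outside cDC1, 3303 members had no call in any of the 22 libraries, 992 had 1 and 847 had 2. The strictest subset, called in 6 of 6 and 0 of 22, held 1691 regions. Just outside the rule were 762 regions called in 3 of the 22 other libraries and 2325 regions called in only 4 of 6 cDC1 libraries. The median signal percentile in cDC1 was 36.5 for members with 2 outside calls and 38.2 for the regions with 3. It was 26.4 for members called in 5 cDC1 libraries and 17.8 for the regions called in 4.

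The 2686 calls outside cDC1 were unevenly spread over libraries. The cDC2 libraries held 77, 427 and 0 members in Cre-negative and 21, 4 and 555 in Cre-positive mice. The migDC1 libraries held 15 and 322 in Cre-negative and 213 and 182 in Cre-positive mice. The 6 migDC2 libraries ranged from 5 to 153 with a median of 22, and the 6 DN migDC libraries ranged from 14 to 308 with a median of 43. Libraries with few and with many member calls thus occurred within the same subset. As a share of member-by-library pairs, 3.51% were called in cDC2, 3.56% in migDC1, 2.0% in DN migDC and 0.823% in migDC2. Over all regions, the mean share called per library was 49.3% in cDC2, 56.1% in migDC1, 64.1% in DN migDC and 65.45% in migDC2. These outside calls were weak peaks: their median signal percentile in their own lists was 9.06 in cDC2, 8.86 in migDC1, 6.36 in migDC2 and 8.83 in DN migDC, against 33.7 for the calls of members in cDC1. Over all called regions the medians were between 51.6 and 52.7. Members were chosen to have at most 2 calls outside cDC1 and at least 5 in cDC1. The lower rank of the outside calls therefore follows at least in part from the rule. No member was called in any of the 4 germline migDC2 libraries, whose lists were the shorter ones with 32088 to 41759 peaks. Of all regions, these libraries called 32.8% to 44.4%.

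**Figure D1:**
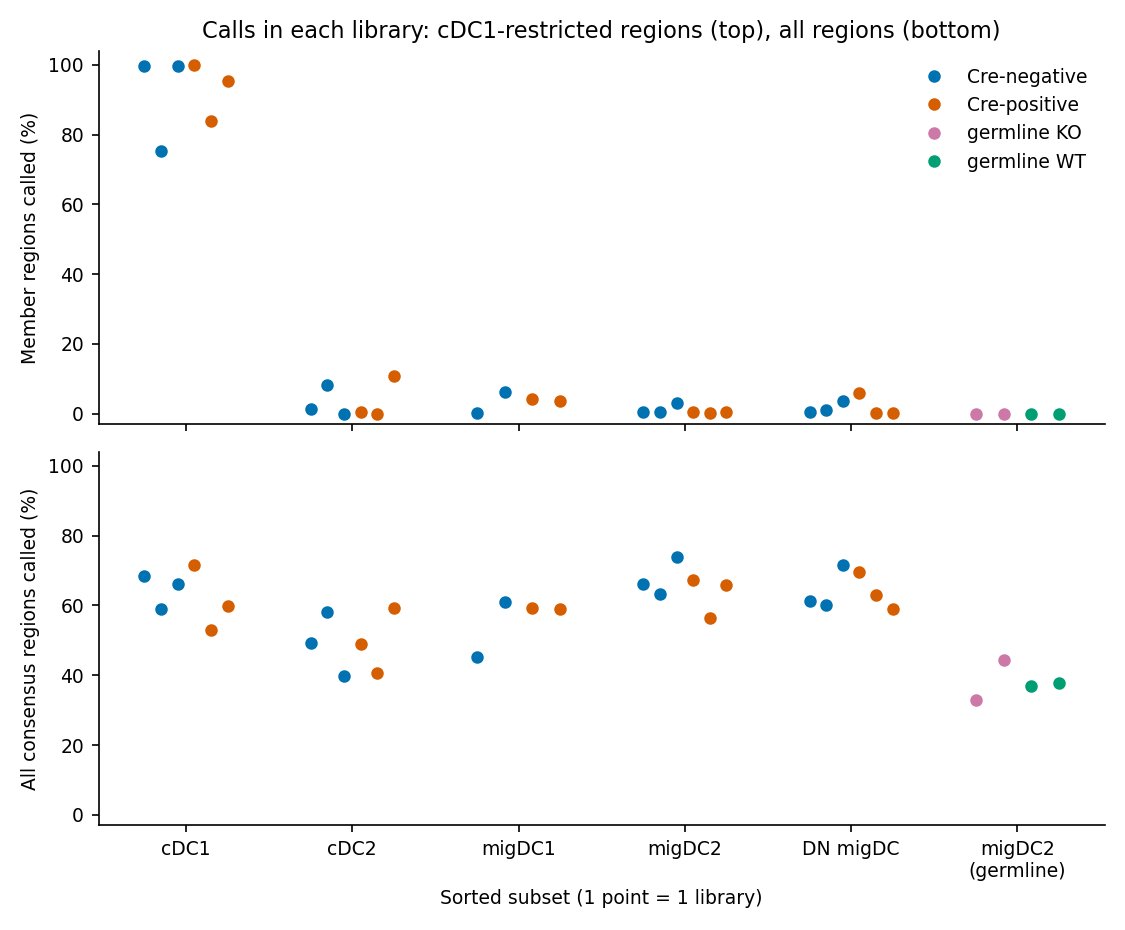
Percent of the 5142 member regions (top) and of all 88757 regions (bottom) called in each library, by sorted subset and coloured by genotype, with 1 point per library. The cDC1 libraries lie between 75.4% and 100% in the top panel and every other library at or below 10.8%, a gap fixed by the rule, while the subsets overlap in the bottom panel.

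List length and the kind of sample title belong beside these counts. The cDC1 lists held 49815 to 68217 autosomal peaks, the cDC2 lists 37812 to 55102, the migDC1 lists 44263 to 59296, the migDC2 lists of the floxed cohort 53688 to 72986 and the DN migDC lists 55912 to 73627. The lists hold no read counts, so the depth is unknown, and a missing call can mean closed chromatin or a peak under the authors' threshold. The smallest signal was 200 in each list to 3 digits. Cre-negative cDC1 library 2 had 8.39% of its peaks outside all regions and Cre-positive DN migDC library 1 had 5.96%, the highest shares of the 32 libraries. All cDC1 and cDC2 libraries have plain numbered titles, all migDC1 libraries have titles with a letter, and migDC2 and DN migDC have both kinds. Against the 4 migratory libraries with plain titles, 354 members had at least 1 call. Of all regions, each of these libraries called 61.4% to 69.6%. The contrast between cDC1 and migDC1 cannot be told apart from the kind of title.

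When every list was limited to its strongest 37812 peaks, the length of the shortest floxed list, 1322 of the 5142 members still met the rule, which is 25.7%. Of the members, 1803 then had no cDC1 call at all. The calls of members outside cDC1 fell to 79. Shortening a list can only remove calls of these regions, so no member could break the limit on outside calls. The 1322 are therefore the members still called in at least 5 cDC1 libraries, which reflects the rank of their cDC1 peaks. They do not test the restriction to cDC1. At that length the rule picked 3162 of the same regions, of which 1840 were not members with the full lists. The Clec9a promoter and both Irf8 members were among those that still met the rule, as were 12 of 28 members at Wdfy4, 5 of 6 at Rab7b and 4 of 5 at Fgd6. Only 2 of 8 at Cadm1 and 2 of 7 at Ahr still met it, and over all genes of the cDC1 list 34 of 84 did.

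The members were weaker and narrower than most cDC1 regions. Their median signal percentile over the 6 cDC1 lists was 33.1, against 58.9 for all 48597 regions called in at least 5 cDC1 libraries, a set that includes the members. By library, the median percentile of members was 35.7, 33.2 and 36.3 in Cre-negative and 40.7, 21.8 and 29.5 in Cre-positive cDC1, a mean of 32.9 ± 6.56 (SD, n = 6). In each of the 6 lists it lay below the median of all cDC1 regions, which ranged from 52.6 to 63.9. Regions shared by cDC1 and migDC1 (579, called in at least 5 cDC1 and 3 migDC1 libraries and at most 2 others) had a median of 46.6, and regions shared by cDC1 and cDC2 (540, by the like rule) had 45.3. Only 41 members reached the 75th percentile and 2 the 90th, while 1489 lay below the 25th. The median width was 398 bp (interquartile range 300 to 527). It was 821 bp for all regions called in at least 5 cDC1 libraries and 570 bp over all regions. Regions restricted to cDC2 by the like rule (348) had 439 bp, so a small width was not particular to cDC1. A region is a stretch under peaks of 3 or more lists, so its width also depends on how many lists hold peaks there. The rule limits that number for members. Within the cDC1 lists, signal and peak width rose together, with a Spearman coefficient across peaks from 0.777 to 0.886, so the lower rank and the smaller width are not separate measures. Summit positions of members varied about as much as those of other cDC1 regions. The median range over the cDC1 libraries was 60 bp for members and 57 bp for all regions called in at least 5 cDC1 libraries, and 77.7% and 76.0% had a range of at most 100 bp.

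**Figure D2:**
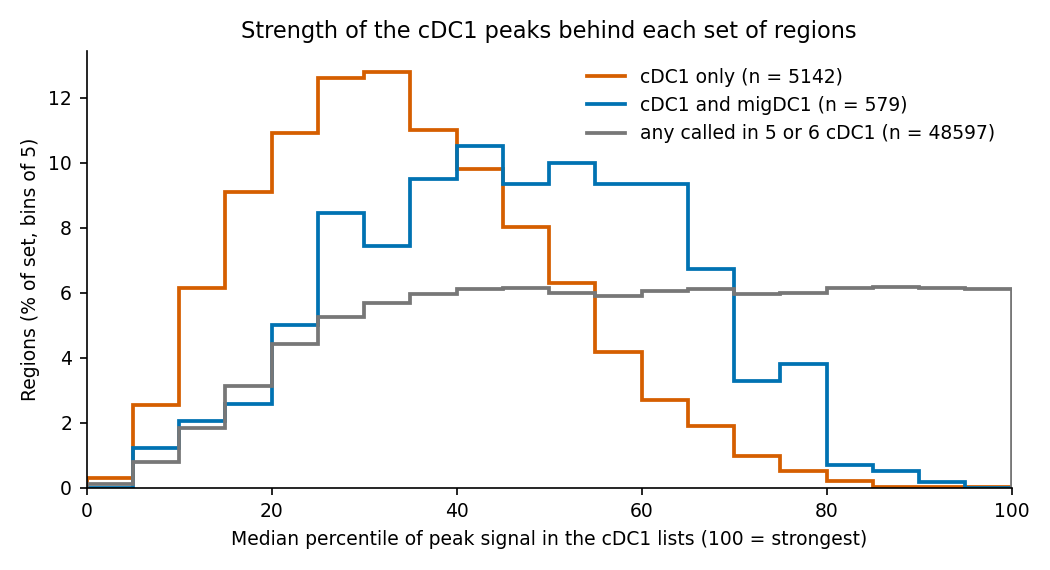
Distribution of the median percentile of peak signal in the cDC1 lists, in bins of 5 percentiles, for the members, for regions shared with migDC1 and for all regions called in 5 or 6 cDC1 libraries. The members centre on 33.1 and the regions shared with migDC1 on 46.6.

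Members lay away from promoters. A total of 254 members, 4.94%, lay within 1000 bp of an end of a protein-coding gene, against 17.2% of all regions and 6.76% of the 24707 regions as wide as the middle of the members (300 to 527 bp). A further 2804 members (54.5%) lay in a gene body, 1427 (27.8%) were distal, meaning within 50000 bp of the nearest gene end, and 657 (12.8%) had no gene within that distance. The same shares over all regions were 46.5%, 26.9% and 9.44%. Only 59 members (1.15%) touched a RefSeq promoter window, against 12.2% of all regions and 2.27% of those of like width. The median distance to the nearest annotated start was 20 kb, against 14 kb. Regions shared by cDC1 and migDC1 had a similar share at gene ends (4.84%), and regions shared by cDC1 and cDC2 had 6.85%. Distance names a neighbour, and the target gene of a region is not known from these data.

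**Figure D3:**
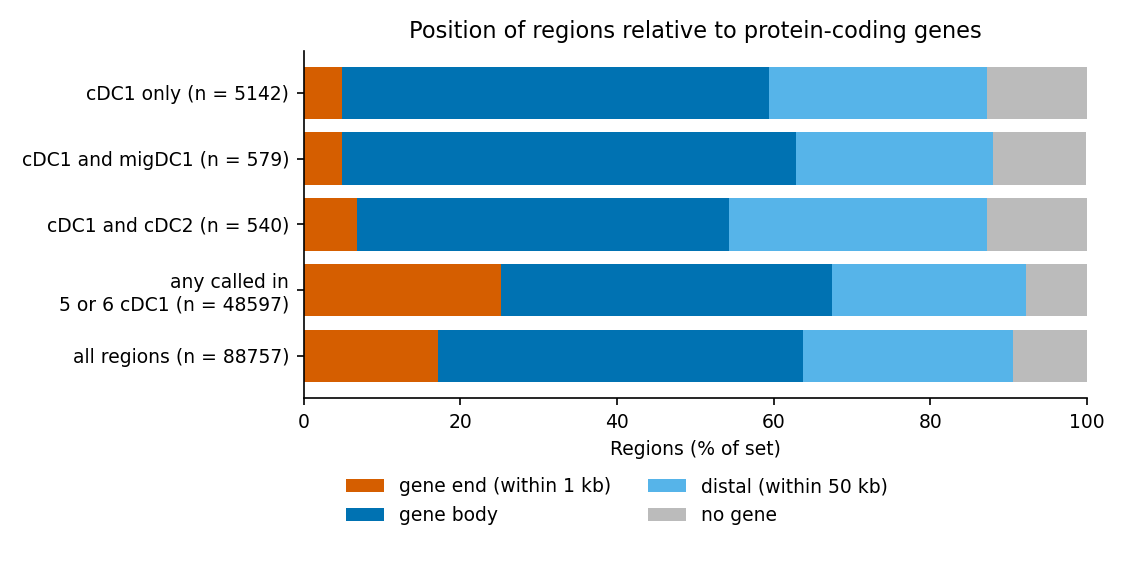
Share of regions at gene ends (within 1 kb), in gene bodies, distal (within 50 kb) and without a gene, for the members and 4 comparison sets. Gene ends make up 4.94% of the members and 17.2% of all regions.

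The few promoters among the members held fewer CpG than other open promoters. The 63 promoter windows they touched, of 60 genes, had a median of 4 CpG dinucleotides and 49.0% GC, whereas the 14261 windows touched by any region had a median of 21 and 61.0% GC. All 31396 promoter windows, open or not, had a median of 7 and 53.0% GC, closer to the member windows. At least 10 CpG were present in 22.2% of the member windows, 79.7% of the windows touched by any region and 44.0% of all windows. The GC box GGGCGGG, bound by SP and KLF factors, was in 12.7% of member windows, 46.2% of windows touched by any region and 25.8% of all promoter windows. The ETS core AGGAAG was in 50.8%, 34.0% and 35.1% of the same sets. The short BATF-IRF composite GAAATGA was in 7 of the 63 windows (11.1%), against 3.81% and 5.38%, and the ETS-IRF composite GGAANNGAA in 9 (14.3%), against 7.23% and 8.13%. RUNX (TGTGGTT) was in 6 (9.52%), against 4.04% and 5.32%. With 63 windows each match moves a share by more than a percentage point, and 23 patterns were searched, so these shares are given as they stand. Beside Clec9a, promoters among the members included those of Asb2, Ly6c1, Ctla4 and Glp1r, chosen after their values were seen, each with 1 or 2 calls outside cDC1. The windows also included those of genes that are not protein-coding, such as Gm39848 and Dreh, and of olfactory receptors, such as Olfr640 and Olfr17. Some windows were touched by few bases, 12 at Ttc22 and 25 at Dreh.

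Genes of the cDC1 list carried more members than genes at large. The list holds 46 genes, of which 43 were matched on autosomes, and 24 of these had at least 1 member, against 3156 of 15673 genes (20.1%) with any region. Of their 591 regions 84 were members (14.2%), against 5.58% over all regions assigned to a gene. Wdfy4 alone gave 28 of the 84, and without it 56 of 534 regions (10.5%) were members. Of the list's regions called in at least 5 cDC1 libraries, 21.8% were members, against 10% over all genes. The median signal percentile of these 84 members was 44.8, against 33.3 for all members assigned to a gene. Among the 84, 50 were called in 6 of 6 cDC1 and 66 in 0 of 22 others. Of those with outside calls, 11 had a call in migDC1, 4 in cDC2, 4 in DN migDC and 0 in migDC2. The list was drawn from genes known in cDC1, and members were picked by calls in cDC1, so these shares describe the set and test nothing.

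**Figure D4:**
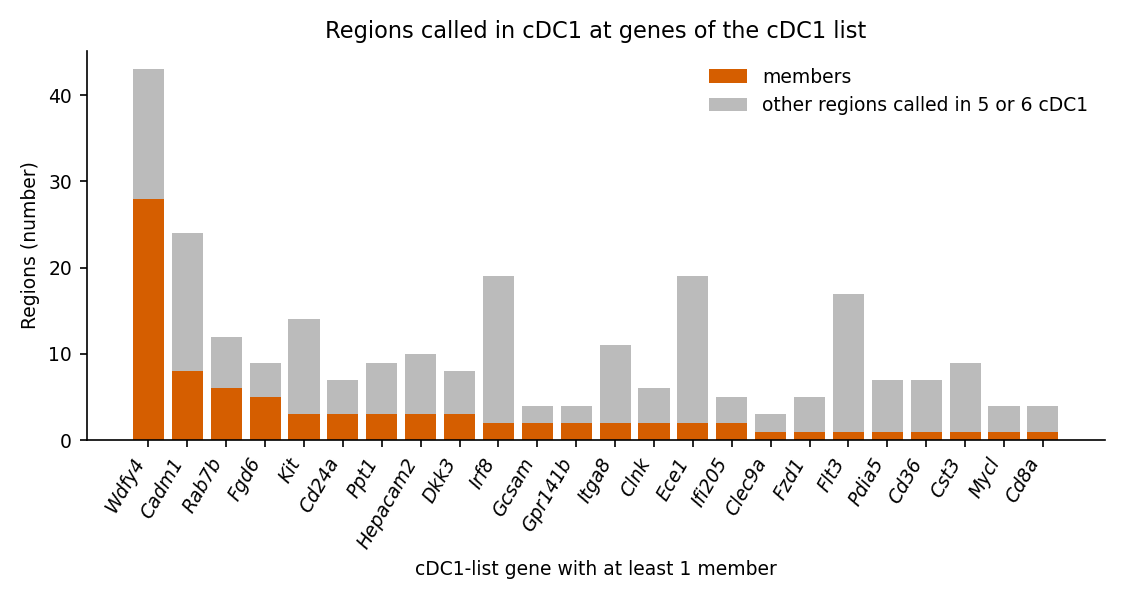
Number of regions called in 5 or 6 cDC1 libraries at each of the 24 cDC1-list genes with a member, divided into members and other regions. Wdfy4 has 28 members of 43 such regions, and Irf8 has 2 of 19.

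Wdfy4, which encodes a protein needed for cross-presentation of cell-associated antigen, held the densest group. Together with Lrrc18, a gene nested within it, it formed a run of 34 members with gaps of at most 25000 bp at chr14:32950020-33084707, 135 kb in the 3′ part of the gene on the minus strand. The members covered 37.3% of that span. Of the 34, 22 were called in 6 of 6 cDC1 and 28 in 0 of 22 others, and the outside calls were 3 in cDC2, 4 in migDC1, 0 in migDC2 and 0 in DN migDC. In the 6 cDC1 libraries 28 to 34 of these members were called from 30 to 37 separate peaks, so the run was not a few broad peaks split into regions. The strongest member of all 5142 lay at the 3′ end, chr14:32954105-32959592. Its signal percentiles were 98.8, 83.5 and 98.2 in Cre-negative and 99.4, 97.9 and 94.9 in Cre-positive cDC1, and it was also called in 1 cDC2 library. Within the same span, 4 other regions were called in at least 5 cDC1 libraries, and all 4 were called in 4 of 4 migDC1 libraries, 1 of them in all 16 migratory libraries. The 5′ end of Wdfy4 was called in every subset, as the map of the locus shows.

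**Figure D5:**
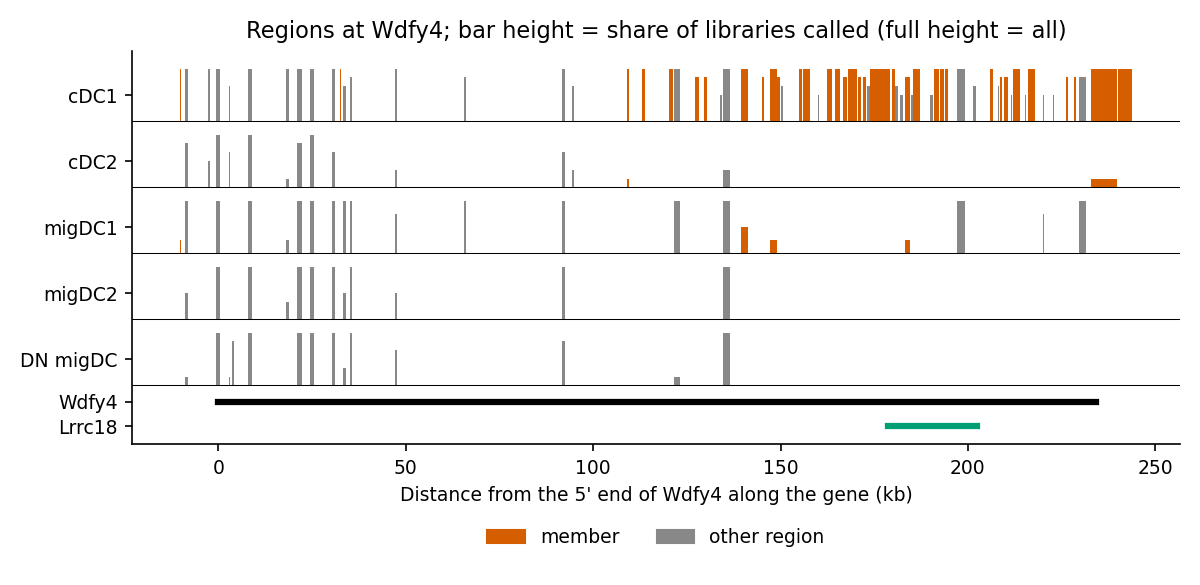
Regions along Wdfy4 by distance in kb from its 5′ end, with 1 track per sorted subset, where bar height is the share of that subset's libraries with a call and members are orange. Members crowd the 3′ part in the cDC1 track and are nearly absent from the other tracks, while grey regions near the 5′ end stand in all tracks.

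Other genes of cDC1 identity had fewer members, nearly all outside promoters. Irf8, the lineage's master regulator, had 2 members of 33 regions, at chr8:120779086-120779499 and chr8:120783829-120784667, which lie 22391 and 27134 bp beyond the gene's 3′ end. Both were called in 6 of 6 cDC1 and 0 of 22 others. The second had signal percentiles of 62.8, 49.6 and 62.4 in Cre-negative and 60.3, 37.7 and 61.4 in Cre-positive cDC1. The Irf8 promoter itself, by contrast, was called in all 28 floxed and 4 germline libraries. Cadm1, which encodes an adhesion molecule of cDC1, had 8 members of 36 regions, all in the gene body with median percentiles from 6.95 to 48.3, and 2 of the 8 met the rule at equal list length. Of these, 3 had calls in 1 or 2 migDC1 libraries and no DN migDC call, and 1 had a DN migDC call. Cd8a had 1 member of 6 regions, 3047 bp beyond the gene, at a median percentile of 22.6. No member lay at Xcr1 (6 regions), Batf3 (16), Itgae (12), Tlr3 (6), Id2 (11), Nfil3 (17) or Il12b (18), which all had regions called in cDC1 and in other subsets.

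Further genes of the cDC1 list had between 1 and 6 members. Rab7b, a small GTPase of late endosomes, had 6 members of 16 regions in a run of 19.7 kb, chr1:131708928-131728631, all called in 6 of 6 cDC1 and 0 of 22 others. The one in the gene body, chr1:131708928-131710913, had percentiles of 74.9, 87.7 and 82.0 in Cre-negative and 79.6, 82.5 and 80.6 in Cre-positive cDC1. A region at the other end of the gene, chr1:131688110-131692121, was called in all 28 floxed libraries. Fgd6, an exchange factor for CDC42, had 5 members of 16 regions, all in the gene body with median percentiles from 26.0 to 59.2. The remaining list genes with members included Kit, the stem cell factor receptor, and Ppt1, a lysosomal thioesterase, with 3 members each, and Flt3, the receptor for the growth factor of DC, with 1. The strongest of these, in Kit at chr5:75621695-75622925, had a median percentile of 69.4.

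Outside the cDC1 list, the transcription factor lists held a smaller share. DC transcription factors had 37 members of 1303 regions (2.84%). Ahr, the aryl hydrocarbon receptor, led with 7 of 19 regions, of which 2 met the rule at equal list length. Its strongest member, chr12:35517208-35519512 in the gene body, ranged from the 73.6 to the 90.6 percentile with a median of 80.0 and had 1 call in cDC2. Runx1 had 4 members of 33 regions, Rbpj, the effector of Notch signalling, 3 of 30, and Bach2, a repressor of the bZIP family, 3 of 61. Genes of maturation and migration had 6 members of 518 regions (1.16%), and MHC class II genes 1 of 137 (0.73%), both below the 5.58% over all assigned regions. The cDC2 list had 11 of 243 (4.53%), with 2 each at Ccr2, a chemokine receptor, Itgam, the integrin CD11b, and Mgl2, a C-type lectin.

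Receptor genes were near the level of all genes. Chemokine and cytokine receptors had 26 members of 587 regions (4.43%). Cxcr4, a receptor for CXCL12, had 3, and its strongest, chr1:128570731-128571313, had a median percentile of 63.4 with 1 call in cDC2 and 1 in migDC1. Il1rap, the accessory chain of the interleukin-1 receptor, had 3 members, Il1r1, its partner chain, had 2 and Il10ra had 2. Pattern recognition receptors had 11 of 242 (4.55%), among them 3 at Nod1, a sensor of bacterial peptidoglycan, 2 at Nlrp3, an inflammasome sensor, and 2 at Havcr2, which encodes TIM-3.

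Lists of other cell types had shares of members from 1.77% to 6.9%, around the 5.58% over all regions assigned to a gene. Members made up 2 of 69 regions of B cell genes (2.9%), 4 of 96 of T cell genes (4.17%), 3 of 66 of NK and ILC genes (4.55%), 1 of 34 of neutrophil genes (2.94%) and 2 of 113 of plasmacytoid DC genes (1.77%). They made up 6 of 87 of monocyte and macrophage genes (6.9%), 5 of 85 of stromal and epithelial genes (5.88%) and 11 of 172 of Langerhans and skin DC genes (6.4%). The stromal count includes 2 members at Pecam1, and the Langerhans count 7 at Ahr. Among regions called in at least 5 cDC1 libraries, the share of members over all genes was 10%. It was 14.3% in the monocyte and stromal lists, 13.9% in the Langerhans list and 11.5% in the NK and ILC list. B cell genes had 9.52%, T cell genes 9.3%, neutrophil genes 6.25% and plasmacytoid DC genes 4.0%. The counts are small, and no difference between lists was tested. Regions at defining markers of other cells differed in how many cDC1 libraries held them, and each was called in other subsets. The promoter of the B cell factor Pax5 was called in 1 of 6 cDC1, 1 of 6 migDC2 and 4 of 6 DN migDC libraries. The region at Ms4a1, the B cell marker CD20, was called in 6 of 6 cDC1, 4 of 6 cDC2, 1 of 4 migDC1, 2 of 6 migDC2 and 5 of 6 DN migDC libraries. The promoter of Siglech, a plasmacytoid DC marker, was called in 6 of 6 cDC1, 6 of 6 cDC2, 2 of 4 migDC1, 2 of 6 migDC2 and 5 of 6 DN migDC libraries. Of macrophage markers, the Mertk promoter was called in all 28 floxed libraries, and the region at C1qa in 1 of 6 cDC1 and in all 22 others. The region at Bcl11b, a T cell factor, was called in 0 of 6 cDC1, 1 of 6 cDC2 and 3 of 6 DN migDC libraries. None of these regions was a member. The part of such cells in the members was not tested.

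Most members stood alone, and some genes on no list held several. Of all members 3429 (66.7%) had no other member within 25000 bp, and 1713 (33.3%) fell into 714 runs. Runs of at least 4 numbered 51. Ssbp3, which encodes a cofactor of LIM-domain transcription factors, had 11 members of 26 regions and Camk1d, a calcium-dependent kinase gene, 11 of 53. Antxr2, the gene of an anthrax toxin receptor, had 9 of 30, and Snx29 (a sorting nexin) and Pde8a (a cAMP phosphodiesterase) had 8 each. Pik3ap1, which encodes the adaptor BCAP, had 7 of 36, and Sgms1, a sphingomyelin synthase gene, 6 of 56. P2ry14, the receptor for UDP-sugars, had 6 members of 11 regions, and all 11 were called in at least 5 cDC1 libraries. By size alone, runs after Wdfy4 included 10 members at Efcc1 and Gp9 over 86.7 kb and 6 at Lrrk2 and Slc2a13.

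Several of the strongest members outside the lists were kilobases wide. After the Wdfy4 3′ end, the highest was chr16:91087447-91094074 in 4932438H23Rik, with percentiles of 97.7, 85.4 and 96.5 in Cre-negative and 99.1, 85.9 and 92.7 in Cre-positive cDC1 and 1 call in migDC2. A region in Prim2, chr1:33567141-33571135, ranged from 3.5 in Cre-negative library 2 to 94.7, so a single library stood far below the rest. A region 2087 bp from Sik1, a salt-inducible kinase gene, chr17:31857892-31859143, lay between 79.3 and 86.6 in all 6 lists with 2 calls in cDC2. Regions near Gm38469, Gpcpd1 and Adh7 and at Ankdd1a completed the 10 strongest with Wdfy4 and Rab7b, at medians from 80.8 to 82.3. Of the 10, 5 had no call outside cDC1.

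No member was called different between Cre-positive and Cre-negative mice, and none could have been. The question was whether Cre-positive and Cre-negative libraries differed in how many held a peak at a region, and the test was an exact conditional test, two-sided, within subsets over 28 libraries, with Benjamini-Hochberg adjustment over 60232 regions. No region passed (0.0%), and 151 had an unadjusted p under 0.05 (0.251%). The smallest unadjusted p was 0.0001. With these few libraries per subset, 1 region alone could not have passed the adjustment even if fully split by genotype. The 0 therefore does not show that the genotypes are alike. Of the 5142 members 0 passed and 0 had an unadjusted p under 0.05. More Cre-positive libraries than Cre-negative ones held a peak at 1560 members, fewer at 1298, and equal numbers at 2284. Single libraries weigh on these counts, since 1264 members were missed among cDC1 only in Cre-negative library 2 and 826 only in Cre-positive library 2. Members are not replicates of a genotype, so the counts give no direction. Members are called in 5 or 6 cDC1 libraries by choice, so the smallest p any of them could reach was 0.167. Ifngr1 itself had 3 members of 16 regions, at chr10:19553857-19554243, chr10:19582237-19582546 and, in the gene body, chr10:19595958-19596374. Each was called in 3 of 3 Cre-negative and 3 of 3 Cre-positive cDC1 libraries, and the third also in 1 Cre-positive cDC2 library. The gene's promoter region was called in all 28 floxed and 4 germline libraries, and peak calls do not show the deletion. Jak1, a kinase of that receptor, had 2 members of 20 regions, and the interferon-γ pathway list had 8 of 227 (3.52%).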

How the data were processed

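Omni-ATAC-seq peak lists of 32 libraries were used, 1 list per library, so replicates were not pooled. Per the submitters' processing notes the tools were Bowtie2, deepTools and Genrich and the build mm10. Versions, settings and the handling of read ends: not given in the sources used here. Of the deposited values, the peak signal ranked peaks within a list, and the deposited −log10 p at the summit ordered peaks of equal signal. Lists hold no counts, so depth is unknown and no counting error can be given.

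Autosomes 1 to 19 were used. Regions, calls and members were made by the rule in the report, and regions were assigned to 20661 RefSeq genes of GRCm38.p6: to a gene with an end within 1000 bp, else the gene body holding the midpoint, else the nearest end within 50000 bp. Promoter sequences are RefSeq's; no genome was used, so motifs were searched only in promoter windows. Calls by genotype were compared by an exact conditional test with subsets as strata. Regions with 3 or more calls and 3 or more missing calls were tested, adjusted by the Benjamini-Hochberg method with a threshold of 0.05. The test was checked on simulated data with fewer regions, some of them set to split strongly by genotype. That check does not show what the test could find here. P-values measure only the spread between these libraries.

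The members, the 20 gene lists (494 of 510 genes matched on autosomes) and the tests were chosen with earlier results of these data known. Named genes were up to 20 list genes by number of members, at most 4 per list, up to 10 other genes, the 10 members of highest signal percentile and 12 genes always given; other list genes and runs were named after their values were seen. Alternatives varied the consensus, the overlap, list length, signal, the rule's limits, gene distances and the libraries. Python 3 with numpy, pandas and SciPy was used.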

Additional observations from a re-analysis of the deposited data

Results flagged for a closer look

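Of 12 groups of 4 to 6 libraries looked at for a single value far from the others, 3 held one. The nominal rate of about 1 group in 20 assumes independent, normally distributed values. These groups reuse the same libraries and include member calls that the rule limited, so that rate is no yardstick here. Among the migDC2 libraries of the floxed cohort, Cre-negative library 3 had 153 member calls, and the next highest had 32. The same library had 3.47% of its peaks outside all regions, and the next highest had 1.26%. Among the DN migDC libraries, Cre-positive library 1 had 5.96% of its peaks outside all regions, and the next highest had 1.73%. Both libraries also held the longest lists of their subsets, with 72986 and 73627 peaks. Their part in the member calls was not tested.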

How the results depend on the processing

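The number of members moved most with the rule's own limits, to 1691 for calls in 6 of 6 cDC1 and 0 others. It was 3164 at equal list length and 3379 with peaks of at least 2 times the smallest signal. It lay between 5040 and 6731 with the other planned settings that kept all libraries. Leaving out each of 28 libraries gave 5144 to 7108. The limit on cDC1 calls was lowered by 1 when a cDC1 library was left out, and the outside limit stayed. Every member then still met the rule, so this count could only rise. The share at gene ends was 6.19% at equal length, 6.42% with the stronger peaks, 3.9% for the strictest rule, 5.59% with up to 4 outside calls and 10.2% (22.7% over all regions) for ends within 2000 bp; leaving out a library gave 4.67% to 5.2%. Germline calls were 0.134% of member-by-library pairs at equal length and 0.0% without each library. Libraries with plain titles only, an alternative chosen after seeing the data, gave 7300 members, 5.33% at gene ends and 0.0479% germline calls. That number of members could likewise only rise. The genotype test called 0 regions with calls by any overlap, at equal list length, without strata, with 1 call and 1 missing call as the minimum, and without each of the 28 libraries. It was not run with the other settings. The mean signal percentile was 38.2 among peaks away from gene ends and 31.3 to 35.1 without each cDC1 library. Motif alternatives at summits and in other windows were not run, since no genome was used here. With promoter windows of cDC1 regions as background, all 23 differences moved by less than their binomial interval. Those 13021 windows are part of the 14261 of the main background, so little movement was possible. No paired analysis was possible because the labels give no number that pairs libraries across genotypes.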
